A study of Mus musculus with 9 samples.

Results

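The gene segments that encode the variable domain of the T cell receptor β chain were described in control thymocytes and in thymocytes with deletion of the gene for SRSF1, a splicing factor of the SR family. Members were all rows of the deposited count table whose Ensembl gene ID pairs with a mouse symbol starting with Trbv, Trbd or Trbj. This gave 51 of 53715 genes: 35 variable (Trbv), 2 diversity (Trbd) and 14 joining (Trbj) segments. The RNA-seq libraries came from thymocytes of C57BL/6 mice aged 6 to 8 weeks, sorted as positive for CD4, CD8, CD24, CD69 and TCRβ. The control group, called WT in the labels, had 3 samples. The SRSF1KO group had 2 samples of the genotype Srsf1fl/flLckcre/+, in which a Cre recombinase under control of Lck, a T lineage kinase gene, acts on a floxed Srsf1 gene. The labels do not say which Lck promoter was used, whether WT mice carried Cre or floxed alleles, or whether replicates came from separate animals. The spread behind each p-value is therefore that of these 5 samples and may in part be technical.

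A T cell builds its β chain gene by recombination. A Trbd segment is first joined to a Trbj segment, and a Trbv segment is then joined to that DJ unit, with deletion or inversion of the DNA between them. Transcripts of the rearranged gene are spliced from the joining segment to Trbc1 or Trbc2, the constant segments of the matching cluster. In mice this takes place in double-negative thymocytes, before the CD4 and CD8 double-positive stage sorted here, and each cell usually keeps a single productive Trbv. In a bulk library the share of a Trbv among all Trbv counts is therefore often read as its usage, although fewer cells that carry a segment and less RNA per cell cannot be told apart.

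Library totals lay between 36026006 and 38985285 counts, and the members held 0.144% to 0.168% of them. Levels are given as CPM, counts scaled by TMM-normalised library size, always in the order of the replicate numbers. The WT levels of Srsf1 were 96.9, 122.7 and 103.1 CPM, and those of SRSF1KO were 42.6 and 30.9 CPM. Srsf1 fell by 1.55 ± 0.19 on the log2 scale (SE, adjusted p = 0.0483 by edgeR's quasi-likelihood test). The gate genes were present in every library, with Cd4 between 767 and 932 CPM for WT but 1229 and 1118 CPM for SRSF1KO (edgeR adjusted p = 0.136) and Cd8a at 1458 to 1829 CPM over the 5 libraries. Ddx3y, a gene on the Y chromosome, had 5803 counts in WT replicate 2, 5699 in SRSF1KO replicate 1 and between 23 and 141 elsewhere. Such a difference within each group means that its libraries did not all come from the same animals.

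The members lie on chromosome 6 between 40891296 and 41558371 (GRCm38), a span of 667076 bases. Trbv1 stands at the 5′ end, apart from the other Trbv segments, and a group of trypsinogen genes separates Trbv30 from the D, J and constant segments. Trbv31 lies beyond Trbc2, 24.5 kb past Trbd1, and joins by inversion. The trypsinogen and other genes between the segments were nearly silent. RefSeq lists 21 genes other than members within this span, 20 of them in the count table. Of these 20, 14 had under 10 counts in each library. The exceptions were Trbc1, Trbc2, the trypsinogen gene Prss2 at 258 to 342 counts, and 2210010C04Rik, Try5 and Gm5771, with at most 40 counts in a library.

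Nearly all Trbv counts belonged to the 22 segments generally held to be functional in the mouse, although RefSeq lists Trbv29 among the pseudogenes. The 13 others, mostly annotated as pseudogenes, held 0.0832%, 0.190% and 0.0991% of the Trbv counts in WT and 0.146% and 0.238% in SRSF1KO, and none had more than 49 counts in a library. Trbv8, Trbv11, Trbv27 and Trbv28 had 0 counts throughout, which allows a share of up to 0.00671% of Trbv counts in the shallowest library (3 counts, counting error only). The remaining 47 members had at least 1 count, and 41 passed the filter on low counts.

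Usage was uneven among the functional segments. Per base of the RefSeq span, Trbv13-2 and Trbv16 stood highest in WT, at 11.7% ± 0.376 and 11.02% ± 0.205 of the summed Trbv level (SD, n = 3). These ranges do not overlap, but only just. In WT replicate 1 the shares of Trbv counts were nearly equal, at 10.67% for Trbv13-2 and 10.64% for Trbv16. Trbv3 followed at 8.45% ± 0.220. Trbv19 (7.26% ± 0.696), Trbv15 (6.96% ± 0.0308) and Trbv2 (6.72% ± 0.553) did not differ from each other beyond their spread. At the low end stood Trbv24 (0.699% ± 0.104), Trbv30 (0.268% ± 0.104), Trbv4 (0.266% ± 0.0330) and Trbv5 (0.0330% ± 0.00275), with Trbv30 and Trbv4 inseparable. The spans include the leader intron, so the order among segments of like level depends on this scale. Over the 22 segments the rank correlation of per-base share with distance to Trbd1 was 0.31, a description over segments of the same libraries. Trbv4 and Trbv5, both at the low end, lie next to Trbv3, the third highest.

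**Figure D1:**
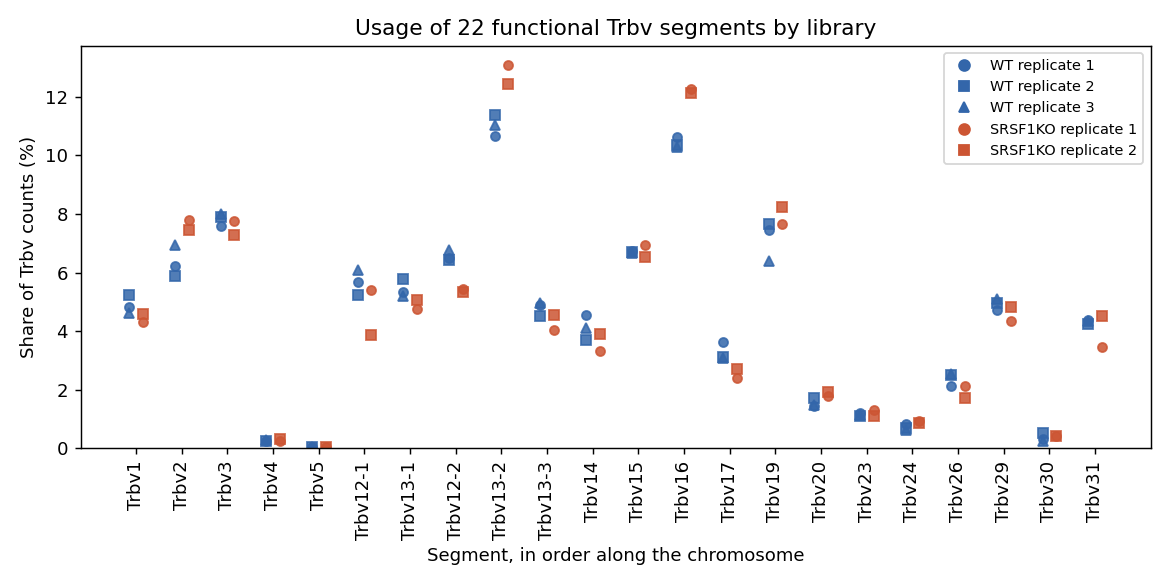
Share of all Trbv counts of a library (vertical axis, percent) for the 22 functional Trbv segments in chromosomal order; each symbol is 1 library, blue for WT and red for SRSF1KO. Trbv13-2 and Trbv16 stand highest in all 5 libraries, and both SRSF1KO libraries lie above the 3 WT libraries for these segments.

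The comparison of SRSF1KO with WT asked whether loss of SRSF1 changed the level or the usage of β chain segments. No member passed the test. With edgeR, 0 of the 41 members tested were called lower and 0 higher at an adjusted p under 0.05, against 0.213% and 0.0519% of all 17351 genes tested, or 0.265% in both directions (46 genes), and the smallest adjusted p of a member was 0.294. At an unadjusted p under 0.05 there were 2 members, Trbv16 and Trbv13-2, which is 2 of 41 against 14.4% of all genes. DESeq2 called 0 members too, with 3 at an unadjusted p under 0.05 and a smallest adjusted p of 0.166. The median log2 fold change of the 22 functional Trbv was 0.03, against −0.01 over all genes tested, with 12 positive and 10 negative values. Summed over Trbv, the level was 1301, 1229 and 1362 CPM in WT and 1428 and 1272 CPM in SRSF1KO, so the groups overlapped.

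The intervals limit how large a change could have gone unseen. Among the 18 functional Trbv with a mean share of at least 1%, the log2 fold changes ran from −0.30 to 0.33, and no 95% interval reached beyond −0.77 or 0.78. For the 5 segments with most counts over all libraries the intervals were 0.01 to 0.53 for Trbv13-2, 0.03 to 0.54 for Trbv16, −0.29 to 0.30 for Trbv3, −0.05 to 0.46 for Trbv19 and −0.03 to 0.67 for Trbv2. The functional Trbv also varied little among WT libraries. The median SD of their log2 levels was 0.11, against 0.28 for the 80 Trav segments tested, the α chain counterparts, and 0.30 over all genes tested, without matching for level.

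**Figure D2:**
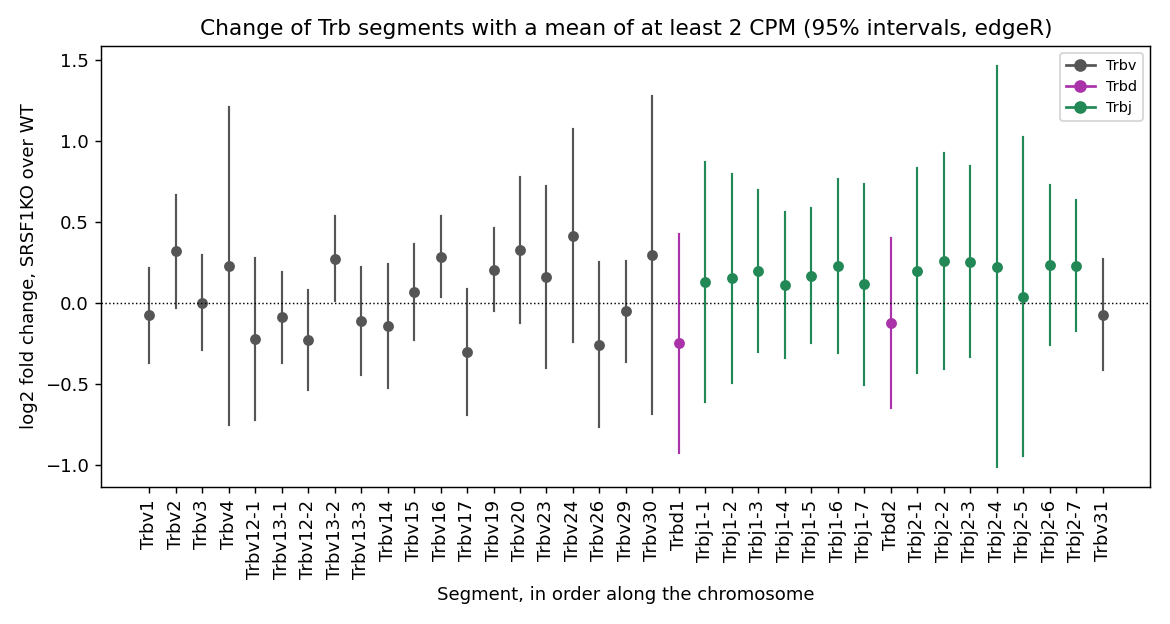
log2 fold change of SRSF1KO over WT with its 95% interval (edgeR) for the 37 segments with a mean of at least 2 CPM, in chromosomal order; grey marks Trbv, purple Trbd and green Trbj. In 35 segments the interval holds 0, in Trbv13-2 and Trbv16 it lies just above 0, and all Trbj points lie above 0.

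Within the Trbv counts, many shares differed between the groups by a small amount. In 11 of the 22 functional segments the SRSF1KO shares lay outside the WT range, 6 above it and 5 below, against 31.4% of all genes tested when scaled in the same way to the summed Trbv counts. On TMM-normalised levels 11 of the 22 had groups that do not overlap, against 32.9% of all genes. None of the differences in share passed a test. With the summed Trbv counts as library size, edgeR called 0 members. There were 0 at an unadjusted p under 0.05, and the smallest adjusted p was 0.405. With 3 samples against 2, the two-sided exact permutation test used here, which doubles the smaller one-sided p, cannot give a p below 0.2. Wilson 95% intervals of the Trbv shares were at most ±0.304 percentage points and cover counting error only. Reads were amplified by PCR without molecular identifiers, so they are not independent molecules.

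The segments above the WT range in share were Trbv13-2, Trbv16, Trbv2 and the little used Trbv20, Trbv24 and Trbv5. Trbv13-2, listed in RefSeq under the older name V8.2, held 10.7%, 11.4% and 11.03% of Trbv counts in WT and 13.1% and 12.5% in SRSF1KO. Its level stood at 138.8, 139.7 and 150.2 CPM in WT and at 186.9 and 158.4 CPM in SRSF1KO, a log2 fold change of 0.27 ± 0.11 (SE, edgeR adjusted p = 0.330). Both SRSF1KO libraries lay above all WT libraries on either measure. Trbv16 (older name V11) held 10.6%, 10.4% and 10.3% in WT and 12.3% and 12.1% in SRSF1KO, with the SRSF1KO libraries close together. Its level stood at 138.4, 127.2 and 139.9 CPM in WT and at 175.0 and 154.5 CPM in SRSF1KO, a log2 fold change of 0.29 ± 0.11 (SE, edgeR adjusted p = 0.294). Trbv2 (older name V4) held 6.22%, 5.90% and 6.93% in WT and 7.80% and 7.44% in SRSF1KO, and its CPM groups were only just apart, at 94.4 for WT replicate 3 and 94.6 for SRSF1KO replicate 2. Trbv20 (older name V15) had the largest ratio of shares among segments of at least 1%, at 1.21: it held 1.43%, 1.70% and 1.48% in WT and 1.79% and 1.91% in SRSF1KO. Its log2 ratio of shares was 0.07 between the libraries of high Ddx3y counts and 0.40 between the others. The same 2 values were 0.20 and 0.20 for Trbv13-2 and 0.24 and 0.22 for Trbv16. Of the 18 functional segments of at least 1%, 13 had the same sign in both comparisons.

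For Trbv19 the shares overlapped, at 7.46%, 7.66% and 6.39% in WT and 7.65% and 8.22% in SRSF1KO. The groups overlapped for Trbv3, at 7.59%, 7.89% and 7.99% against 7.76% and 7.27%.

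The segments below the WT range in share were Trbv1, Trbv13-1, Trbv12-2, Trbv17 and Trbv26. Over the 18 segments of at least 1%, the rank correlation of the log2 ratio of shares with mean share was 0.38, a description over segments of the same libraries. Trbv12-2 (older name V5.1) held 6.49%, 6.42% and 6.76% in WT and 5.44% and 5.33% in SRSF1KO, and both SRSF1KO libraries lay below WT. Its log2 fold change in level was −0.23 ± 0.13 and, relative to the summed Trbv counts, −0.28 ± 0.13 (SE; edgeR adjusted p = 0.498 and 0.405). Trbv12-1 (older name V5.2) held 5.68%, 5.22% and 6.10% in WT and 5.41% and 3.86% in SRSF1KO, so its lower mean rested on SRSF1KO replicate 2. Without that library its difference in share was −0.26 percentage points, against −1.03 with all libraries. Trbv17 (older name V9) had the smallest ratio of shares, 0.782: it held 3.62%, 3.11% and 3.08% in WT and 2.40% and 2.71% in SRSF1KO. Its level stood at 47.1, 38.2 and 42.0 CPM in WT and at 34.2 and 34.5 CPM in SRSF1KO, with no overlap of the groups (log2 fold change −0.30 ± 0.17, edgeR adjusted p = 0.466). Trbv26 (older name V3.1) held 2.13%, 2.49% and 2.54% in WT and 2.11% and 1.70% in SRSF1KO, the groups almost touching.

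Neighbouring members of a family lay on different sides of WT. Trbv13-1, Trbv13-2 and Trbv13-3 are interleaved with the Trbv12 segments on the chromosome, and reads of such related copies can be split between them by the counting, so their single values are less certain. Trbv13-1 held 5.33%, 5.78% and 5.21% in WT and 4.76% and 5.07% in SRSF1KO, lower in both SRSF1KO libraries, while Trbv13-2 was higher in both. The Trbv13 family as a whole held 20.9%, 21.7% and 21.2% in WT and 21.9% and 22.1% in SRSF1KO. The functional Trbv12 segments together held 12.2%, 11.6% and 12.9% in WT and 10.9% and 9.19% in SRSF1KO. Trbv15 showed no such separation, at 6.72%, 6.69% and 6.67% in WT and 6.93% and 6.52% in SRSF1KO. The rank correlation of the log2 ratio of shares with distance to Trbd1 was −0.01 over the 22 segments, again as a description.

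Trbv1, the Trbv13 segments and Trbv29 encode the β chains used most by invariant natural killer T (iNKT) cells in mice. Their summed share was 30.4%, 31.9% and 30.9% in WT and 30.6% and 31.5% in SRSF1KO, a difference of −0.06 percentage points (two-sided exact permutation p = 1, adjusted p = 1 over 18 summary values). The sum joins members on different sides of WT: Trbv13-2 differed by 1.75 points, Trbv1 by −0.43, Trbv13-1 by −0.53, Trbv13-3 by −0.50 and Trbv29 by −0.35. The share of Trbv1 was 4.82%, 5.25% and 4.61% in WT and 4.32% and 4.59% in SRSF1KO, the groups almost touching.

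The effective number of Trbv segments, the exponential of the Shannon entropy of the shares, was 16.9, 17.0 and 16.8 in WT and 16.3 and 16.5 in SRSF1KO. Both SRSF1KO libraries lay below the WT libraries (two-sided exact permutation p = 0.2, the smallest this form of the test allows here, and adjusted p = 0.36 over 18 summary values). A lower value means that counts are concentrated on fewer segments.

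Trbv profiles were more alike within groups than between them. The share of Trbv counts that would have to move to turn the profile of a library into that of another was 3.18 to 3.63 percentage points between WT libraries, 4.44 between the SRSF1KO libraries and 6.08 to 7.55 for the 6 pairs of different groups. The same order held over all genes tested, at 6.58 to 7.59 within WT, 7.61 within SRSF1KO and 9.40 to 12.5 between groups. Over Trav, distances between groups (13.9 to 17.3) were no longer all above the distance within SRSF1KO (15.2).

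**Figure D3:**
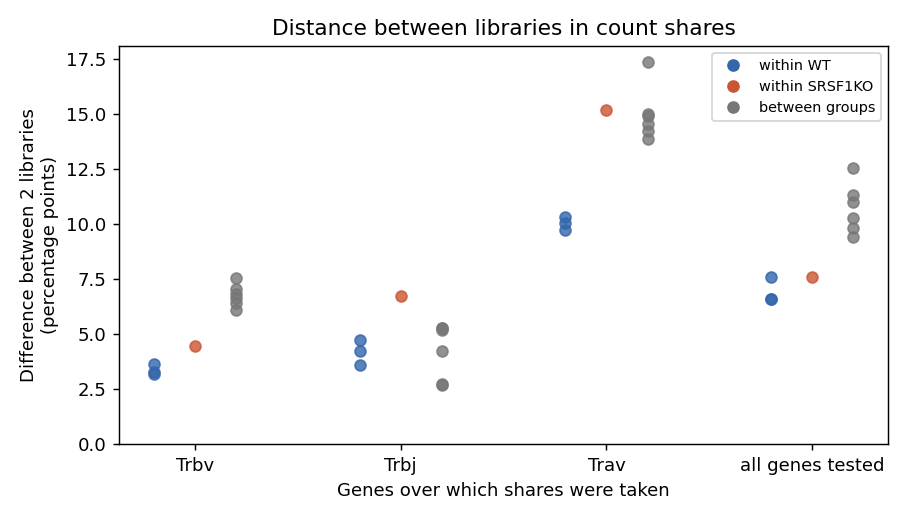
Difference between 2 libraries in their count shares (vertical axis, percentage points that would have to move) over Trbv, Trbj, Trav or all genes tested; each point is 1 pair of libraries. For Trbv the 6 pairs between groups, at 6.08 to 7.55, lie above all 4 pairs within a group, while for Trbj the pair within SRSF1KO, at 6.71, is the highest.

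Joining segments all had a slightly higher mean level in SRSF1KO, while the groups overlapped in their proportions. All 14 Trbj had a positive log2 fold change, from 0.04 to 0.26 with a median of 0.20, and none passed (smallest edgeR adjusted p = 0.624). In 5 of the 14 the SRSF1KO libraries lay above all WT libraries, against 15.2% of all genes in that direction. Summed Trbj stood at 191.4, 194.6 and 192.6 CPM in WT and 229.7 and 210.1 CPM in SRSF1KO, with the WT libraries within a narrow range. The 14 segments share libraries and can share transcripts, so their values are not independent. With the summed Trbv counts as library size, 13 of 14 remained positive with a median of 0.14, and without SRSF1KO replicate 1, 11 of 14 were positive with a median of 0.14.

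Counts were unevenly spread over the joining segments, in all libraries alike. The segments are 46 to 53 bases long in RefSeq, so their counts can be compared with little length correction. Trbj2-7, the last functional segment of its cluster, stood at 27.9, 28.1 and 29.9 CPM in WT and at 36.0 and 31.1 CPM in SRSF1KO. Its share of Trbj counts was 14.6%, 14.5% and 15.5% in WT and 15.7% and 14.8% in SRSF1KO. Trbj1-5 held 14.2%, 15.5% and 13.1% in WT and 13.6% and 14.6% in SRSF1KO, and Trbj1-4 held 11.5%, 12.2% and 11.04% in WT and 11.1% and 10.8% in SRSF1KO. Trbj2-6, annotated as a pseudogene, held 11.6%, 12.8% and 14.0% in WT and 14.5% and 11.8% in SRSF1KO. That is more than any other joining segment of its cluster except Trbj2-7, and its level of 22.3 to 33.3 CPM lay above the levels of Trbj2-4 (1.64 to 2.41 CPM) and Trbj2-5 (3.01 to 4.26 CPM), its functional neighbours upstream.

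In the first cluster the share was larger at each step from Trbj1-1 (mean over the 5 libraries 3.38%), the farthest from Trbc1, through Trbj1-2 (4.94%), Trbj1-3 (8.00%) and Trbj1-4 (11.3%) to Trbj1-5 (14.2%), and was lower at Trbj1-6 (6.82%) and Trbj1-7 (5.01%). The counts do not tell spliced transcripts from unspliced ones, and how reads that span a joining and a constant segment, or a recombined junction, were counted is not given in the sources used here. These shares are therefore shares of assigned reads and not of rearrangements.

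**Figure D4:**
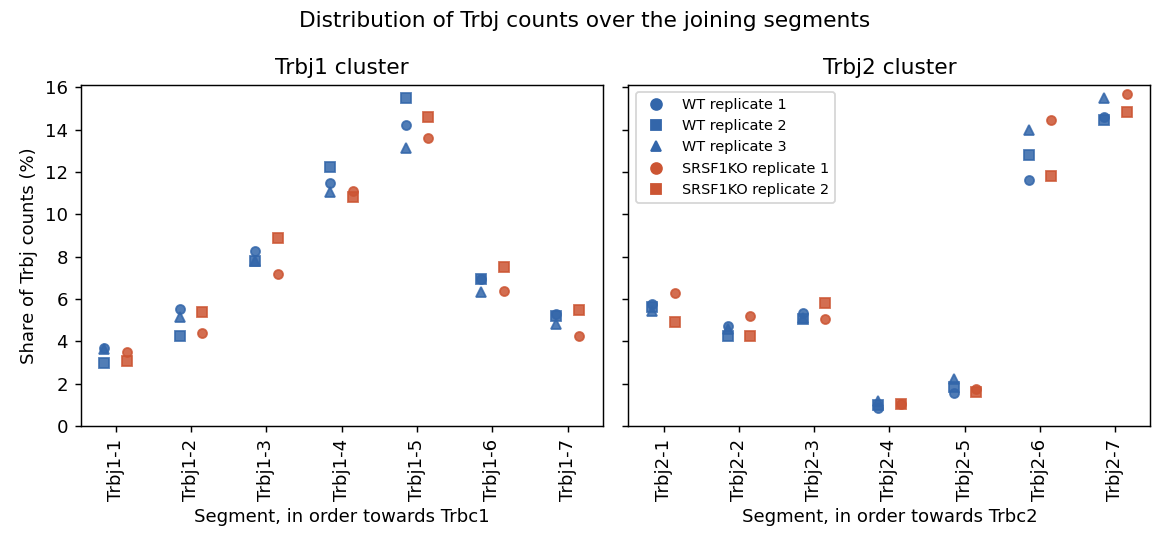
Share of all Trbj counts of a library (vertical axis, percent) for the joining segments of both clusters, in order towards the constant segment; each symbol is 1 library. Trbj1-5, Trbj2-6 and Trbj2-7 stand high and Trbj2-4 and Trbj2-5 low in all 5 libraries, and the groups overlap in every segment.

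The groups overlapped in the share of Trbj counts of all 14 joining segments. Relative to the summed Trbv counts, the groups lay apart for 4 of the 14 (Trbj2-2, Trbj2-3, Trbj2-4 and Trbj2-7), against 31.4% of all genes on that scale, so the count was near the background. The Trbj1 cluster held 55.5%, 54.9% and 52.0% of Trbj counts in WT and 50.5% and 55.7% in SRSF1KO (two-sided exact permutation p = 0.8, adjusted p = 0.847). The SRSF1KO libraries were the extremes on either side. Without SRSF1KO replicate 1 the difference turned from −1.02 to 1.59 percentage points. Within the libraries of high Ddx3y counts it was −4.45 points and within the others 1.99 points.

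The diversity segments are the shortest members and form the middle of the junction between variable and joining segments. Trbd1 stood at 9.72, 8.11 and 8.62 CPM in WT and at 7.19 and 7.64 CPM in SRSF1KO, with both SRSF1KO libraries below WT (log2 fold change −0.25 ± 0.29, SE, edgeR adjusted p = 0.786). Trbd2 stood at 21.0, 16.4 and 21.1 CPM in WT and at 18.4 and 17.4 CPM in SRSF1KO, with overlap (−0.12 ± 0.22, edgeR adjusted p = 0.878). Trbd1 made up 31.6%, 33.1% and 29.0% of Trbd counts in WT and 28.0% and 30.5% in SRSF1KO.

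Ratios between the classes differed in direction. Trbv counts amounted to 0.340, 0.350 and 0.348 of the Trbc counts in WT and to 0.313 and 0.334 in SRSF1KO. Trbj counts amounted to 0.147, 0.158 and 0.141 of the Trbv counts in WT and to 0.161 and 0.165 in SRSF1KO. For Trbd the ratio to Trbv was 0.0237, 0.0199 and 0.0218 in WT and 0.0180 and 0.0197 in SRSF1KO. In each of these 3 ratios the groups lay apart, though only narrowly (two-sided exact permutation p = 0.2 each, the smallest this form of the test allows here, and adjusted p = 0.36). Between the libraries of high Ddx3y counts the Trbj ratio differed by 0.0025, and between the others by 0.0209.

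**Figure D5:**
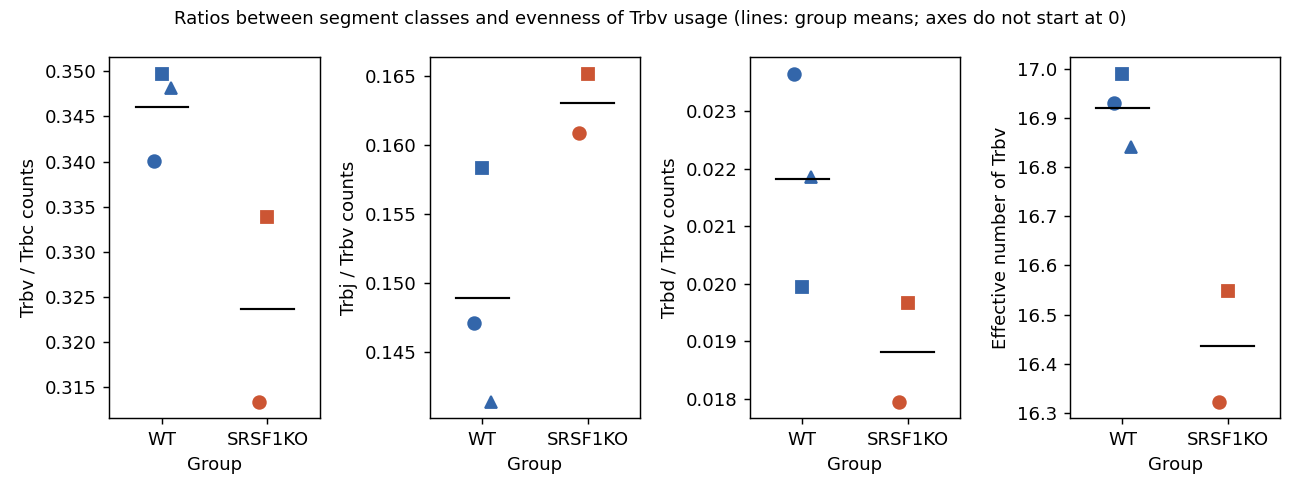
Counts of Trbv per Trbc count, of Trbj per Trbv count and of Trbd per Trbv count, and the effective number of Trbv, by group; each symbol is 1 library (circle replicate 1, square replicate 2, triangle replicate 3), lines are group means and the axes do not start at 0. SRSF1KO libraries lie below WT in the Trbv, Trbd and effective number panels and above WT in the Trbj panel.

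The constant segments, which every β chain transcript carries, did not pass the test. Trbc1 stood at 1398, 1263 and 1384 CPM in WT and at 1545 and 1299 CPM in SRSF1KO (log2 fold change 0.08 ± 0.10, edgeR adjusted p = 0.821). Trbc2 stood at 2427, 2251 and 2528 CPM in WT and at 3012 and 2511 CPM in SRSF1KO (0.20 ± 0.10, adjusted p = 0.426). For both the groups overlapped, and SRSF1KO replicate 1 was the highest library. Of the 8 genes of the receptor complex and the pre-receptor, 0 were called and 4 had groups that do not overlap, against 32.9% of all genes. Among them, Trac, the α chain constant segment, stood at 1184 ± 8.88 CPM in WT against 1004 ± 4.93 CPM in SRSF1KO (SD, n = 3 and n = 2, edgeR adjusted p = 0.230). Ptcra, the surrogate α chain that pairs with a new β chain, stood at 18.5 ± 3.56 and 29.5 ± 3.23 CPM (SD, n = 3 and n = 2, edgeR adjusted p = 0.255).

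Of 17 genes of the recombination machinery 0 were called, 11 had a positive log2 fold change and 6 a negative one. The median was 0.24 against −0.01 over all genes. In 9 of the 17 the groups did not overlap, against 32.9% of all genes. Lig4, the ligase that closes the coding joints, stood at 51.7 ± 4.9 CPM in WT against 90.01 ± 9.18 CPM in SRSF1KO (SD, n = 3 and n = 2, edgeR adjusted p = 0.0805). Dntt, the terminal transferase that adds bases at the junctions, had the next smallest p, with a log2 fold change of 0.76 ± 0.17 (edgeR adjusted p = 0.127). The largest change in the list was that of Poll, which was lower in SRSF1KO. Its log2 fold change was −1.16 ± 0.36 (SE, edgeR adjusted p = 0.222). Of 22 transcription factors and architectural proteins known to act on the locus or in thymocytes, 19 had a positive value with a median of 0.30, against 8563 of all 17351 genes. None of the 22 was called, and 15 had groups that do not overlap, against 32.9% of all genes. Runx3, which acts in the CD8 lineage, stood at 111 ± 8.15 CPM in WT against 48.0 ± 13.8 CPM in SRSF1KO (SD, n = 3 and n = 2, edgeR adjusted p = 0.0637), and Tcf7, which encodes TCF-1, at 1943 ± 73.3 and 2585 ± 219 CPM (adjusted p = 0.118). The lists were chosen with earlier results of these data known.

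Ephb6, a receptor gene next to Trbv31, stood at 296 ± 32.3 CPM in WT against 335 ± 25.05 CPM in SRSF1KO (SD, n = 3 and n = 2, edgeR adjusted p = 0.561). It was the most abundant of the 18 neighbour genes in the table, of which 5 were tested, 0 called and 5 at 0 in all libraries.

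Markers of other cells differed in part between the groups. The γδ T, B, myeloid and epithelial cells lack the combination of CD4, CD8 and TCRβ on their surface for which cells were sorted. Some of their markers had counts in every library, such as the B cell marker Ighm at 463 to 713 CPM. For γδ T cells, whose receptor lacks a β chain, 7 of the 8 markers in the table, of 11 listed, had a positive log2 fold change, with a median of 0.42, and none was called or at 0 in all libraries. Trdc, the δ chain constant segment, stood at 30.1 ± 2.37 and 50.4 ± 9.18 CPM (SD, n = 3 and n = 2, edgeR adjusted p = 0.140). For iNKT and NK cells the 8 markers summed to 235.9 to 277.7 CPM in WT and to 99.2 and 145.9 CPM in SRSF1KO, nearly all of it from Il2rb, a cytokine receptor chain also found on other T cells. Of the 6 tested, 5 lay lower in SRSF1KO by their log2 fold change (median −1.47) and none was called. In 4 of the 6 the groups did not overlap, against 32.9% of all genes. Klrk1 went the other way, with a log2 fold change of 0.51 ± 0.74 (SE, edgeR adjusted p = 0.840). Klrd1, an NK receptor gene, stood at 7.01 ± 0.214 CPM for WT and 1.93 ± 1.23 CPM for SRSF1KO (SD, n = 3 and n = 2, edgeR adjusted p = 0.179). The defining iNKT factor gene Zbtb16 was near the floor of detection. It stood at 0.18 to 1.21 CPM for WT and at 0.028 CPM in each SRSF1KO library (edgeR adjusted p = 0.304). B cell markers summed to 499.8 to 574.4 CPM in WT and 566.2 and 770.1 CPM in SRSF1KO, the groups overlapping and most of it from Ighm. The ranges of the summed levels overlapped for the 10 myeloid, the 8 epithelial and the 6 immature thymocyte markers. No marker of these lists was called. Among those tested, the groups did not overlap in 2 of 10 myeloid, 1 of 4 epithelial and 2 of 6 immature thymocyte markers. That compares with 32.9% of all genes. The part of these markers in the Trb values was not tested.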

How the data were processed

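RNA-seq of 3 WT and 2 SRSF1KO samples was used. The series also has 4 CLIP-seq samples, not analysed here. Libraries followed Smart-seq2 per the labels' protocols. The authors deposited a table of raw read counts per gene, without normalisation. Per the submitters' processing notes, the tools were HTSeq 0.6.1, Bowtie2 2.1.0, DESeq2 1.20.0, cutadapt 1.17, HOMER 4.9.1, Trim Galore and FastQC 0.11.5, with the build mm10 and no roles given. For RNA-seq, the aligner, annotation release, strand setting and treatment of multiply mapped reads were not given in the sources used here. Symbols came from a names table (53620 IDs matched, 95 did not), and positions, lengths and older names from RefSeq for GRCm38.p6, by symbol (51 of 51 members). No segment sequences were used.

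The whole table was fitted with edgeR 4.0.16 in R 4.3.3 (TMM, filterByExpr, robust glmQLFit, glmQLFTest, group as the only term, 17351 genes), with Benjamini-Hochberg adjustment over all genes tested and calls at 0.05. Scripts were tested on simulated counts. Shares were taken within Trbv, Trbd or Trbj counts of a library. The 18 summary values were compared by two-sided exact permutation tests, in which the smaller one-sided p is doubled, with Benjamini-Hochberg adjustment. Alternatives were other scalings and filters, DESeq2 1.42.0, limma-voom (limma 3.58.1), the replicate number as a block, the summed Trbv counts as library size, pooled counts, other denominators and leaving out each library. A term for the Ddx3y pattern (above or below 1000 counts) and the per-base scale were added after the data were examined.

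Values in every sample are given for functional Trbv with a mean share of at least 5%, the 3 largest ratios of shares up and down among those of at least 1%, both Trbd and Trbj of at least 10%. Per list, up to 2 called genes, or the 2 with the smallest p, were eligible to be named. Klrk1, Zbtb16 and Poll were named in addition. Members and lists were chosen with earlier results of these data known. Values of single markers of other cell types are in part not reported here.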

Additional observations from a re-analysis of the deposited data

How the results depend on the processing

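No Trb segment was called lower or higher under any of the 14 alternatives fitted, while the count of all genes called, 46, was 10 with DESeq2's size factors in edgeR, 544 without a filter on low counts, 376 at a mean of at least 5 CPM, 1016 with DESeq2, 94 with limma-voom, 6 with the summed Trbv counts as library size, 5 with a term for the Ddx3y pattern and 0 to 88 with a library left out. With the replicate number as a block edgeR called 0 genes (1640 at an unadjusted p under 0.05). Deviations of same-numbered samples from their group means correlated at −0.02 and 0.03. The deviations of 2 SRSF1KO libraries mirror each other by construction, so these values cannot decide whether samples were paired. The labels do not say that the numbers pair samples, and no pairing was assumed. A lone SRSF1KO library was taken to have the spread of the WT libraries. The median log2 fold change of functional Trbv was between −0.0562 and 0.16 with a library left out. Of 252 alternative values for the 18 segments described singly, 244 kept their sign. Trbv3, at 0.0024, was −0.0022 with limma-voom, −0.0576 with the summed Trbv counts and −0.0106 with the Ddx3y term, and −0.13 to 0.15 with a library left out. The corresponding ranges were −0.58 to 0.0873 for Trbv12-1 and −0.0654 to 0.21 for Trbv15. For shares, in percentage points, the ranges that crossed 0 were −3.64 to 1.59 for the Trbj1 cluster, −0.53 to 0.41 for the iNKT-associated Trbv, −0.18 to 0.24 for Trbv15, −0.75 to 0.42 for Trbj1-5, −1.004 to 1.68 for Trbj2-6 and −0.0373 to 0.805 for Trbj2-7. The differences in the effective number of Trbv and in the 3 ratios between classes kept their sign with each library left out. The cause of these shifts was not tested.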
